A study of Mus musculus with 16 samples.

Results

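The fatty acid desaturases and elongases described here are 10 genes: the desaturases Scd1, Scd2, Fads1 and Fads2 and the elongases Elovl1, Elovl2, Elovl3, Elovl5, Elovl6 and Elovl7. They were selected by gene symbol from the 23279 named genes of the array, and all 10 were measured. The choice was made from the data: Scd2 was taken because its tumour values stood out most in an earlier look at these arrays, and the other 9 were taken because they belong to its enzyme families. Its tumour values are therefore a description here, with no test.

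The study profiled liver RNA on 16 one-colour arrays from male mice aged 16 months. Mice carrying Axin1 fl/fl alleles were crossed with Alfp-Cre mice, whose Cre is active in the liver of the embryo, so that Axin1 is lost in hepatocytes. Which other liver cells keep it cannot be told from these bulk tissue arrays. Axin1 protein holds together the machinery that keeps beta-catenin low, and the deleted animals form liver tumours from 9 months on. The 3 groups are normal liver of 3 control mice without the deletion (mice 10, 11 and 12), non-tumour liver next to tumours of 5 deleted mice (mice 121, 123, 124, 1931 and 81), and 8 tumours of 6 deleted mice (3 of mouse 121 and 1 each of mice 123, 124, 81, 90 and 93). Mice 121, 123, 124 and 81 gave both tumour and adjacent liver. The exact genotype of the controls is not given beyond the absence of the deletion.

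Desaturases and elongases work in the endoplasmic reticulum on fatty acids bound to coenzyme A. The Scd enzymes place the first double bond into saturated chains and so make palmitoleate and oleate; Scd1 is the main form of adult mouse liver, whereas Scd2 is best known from brain and from the liver before and around birth. Fads1 and Fads2 add further double bonds to dietary polyunsaturated chains, and the Elovl enzymes catalyse the first, chain-specific step of lengthening. In liver many of these genes are controlled by the lipid-sensing factors SREBP-1c and LXR.

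Values are log2 expression values, so that a difference of 1 is a doubling, and the array median is between 4.37 and 4.50 on every array. All values span 1.47 to 12.9, and 10% of them lie below 2.56; the number of mice, not a read depth, limits precision. Axin1 itself was at 5.07 to 5.48 in the controls, 3.90 to 4.39 in adjacent liver and 3.95 to 4.81 in tumours, with every deleted sample below every control. The mean of 8 hepatocyte markers was 11.4 to 11.7 in controls, 11.5 to 11.7 in adjacent liver and 11.2 to 11.5 in tumours. Of 71 measured markers of hepatocytes and other cell types, 0 passed limma's test in any comparison, and 19 had an unadjusted p under 0.05 in tumours against adjacent liver, 25 in tumours against controls and 5 in adjacent liver against controls. Over all genes the shares with an unadjusted p under 0.05 in these comparisons were 15.3%, 12.5% and 4.55%. Control mouse 10 stood apart with the highest neutrophil and macrophage list means, 6.20 and 8.69, against at most 4.42 and 6.79 in the adjacent livers and tumours.

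For the promoters, RefSeq (GRCm38.p6) held entries for 6 of the 10 genes (Fads2, Elovl1, Elovl2, Elovl5, Elovl6 and Elovl7); Scd1, Scd2, Fads1 and Elovl3 are named only. The stretches of Elovl7 (chr13:108214154-108214325, plus strand, 172 bases, 70.3% GC) and Fads2 (chr19:10101504-10101753, minus strand, 250 bases, 64.8% GC) are shown. They lie upstream of the first annotated start and are written 5′ to 3′, with the GC box GGGCGG in capitals, and stand for a gene whose tumour and liver groups did not overlap by mouse average and a gene whose groups did.
Elovl7: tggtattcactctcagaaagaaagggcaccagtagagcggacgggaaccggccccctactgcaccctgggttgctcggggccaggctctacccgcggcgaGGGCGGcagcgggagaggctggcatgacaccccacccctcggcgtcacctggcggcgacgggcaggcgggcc
Fads2: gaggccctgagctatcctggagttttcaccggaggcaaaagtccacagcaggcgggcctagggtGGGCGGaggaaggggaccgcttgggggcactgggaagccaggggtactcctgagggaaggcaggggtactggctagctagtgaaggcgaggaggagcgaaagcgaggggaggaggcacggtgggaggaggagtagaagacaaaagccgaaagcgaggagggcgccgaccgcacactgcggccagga
Both hold 1 such box, starting at base 101 of the Elovl7 stretch and base 65 of the Fads2 stretch. Searched on both strands in the 250 bases before the start, the GC box was in 4 of the 6 genes (Elovl1, Elovl2, Elovl7 and Fads2) and in 32.7% of all 32851 promoters. CCAAT was in Elovl1 and Elovl5 and in 33.8% of all promoters, and the E-box CACGTG was in Elovl5 and in 6.02%. The sterol element core TCACNCCAC, found in 1.05% of promoters, the TCF core CTTTGAT, found in 3.21%, and TATAAA, found in 12.4%, matched none of the 6, which says only that these letters are not in this window.

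Among the stearoyl-CoA desaturases, Scd2 was at a low level in liver without tumour and high in every tumour, while Scd1 was high throughout. Scd2 was at 5.13, 4.93 and 4.89 in control mice 10, 11 and 12. It was at 5.73, 3.68, 5.31, 4.92 and 4.50 in the adjacent livers of mice 121, 123, 124, 1931 and 81. In the tumours it was at 9.66, 9.91 and 8.27 in mouse 121 (the unnumbered tumour, tumour 2 and tumour 3), 9.83 in mouse 123, 9.44 in mouse 124, 8.09 in mouse 81, 8.56 in mouse 90 and 7.44 in mouse 93. All 8 tumours thus lay above all 8 other arrays, and the lowest tumour was that of mouse 93. With 1 value per mouse, the tumour mean was 8.77 ± 0.91 (SD, n = 6), against 4.83 ± 0.79 in adjacent liver (SD, n = 5) and 4.98 ± 0.12 in controls (SD, n = 3). This is a difference of 3.95 on the log2 scale (SE 0.41, 15.4-fold) from adjacent liver and of 3.79 (SE 0.48, 13.8-fold) from controls. In such bulk tissue, more cells of a type that holds Scd2 RNA and more Scd2 RNA per cell cannot be told apart.

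Scd1, the main hepatic enzyme for oleate synthesis, was at 11.4 to 11.8 in controls, 11.7 to 11.98 in adjacent liver and 11.001 to 12.06 in the 8 tumours. The ranges overlapped, and the only tumour below all liver arrays was that of mouse 81 at 11.001. The difference between tumours and controls was 0.04 (95% interval -0.33 to 0.41, limma adjusted p = 0.951), and that between tumours and adjacent liver was -0.18 (SE 0.15). Scd1 lies in the upper part of the scale, where array values can be compressed. Whether this holds for Scd1 was not tested. Taking each gene's change from the control mean, Scd2 exceeded Scd1 by 2.27 to 4.84 in the 8 tumours, by -1.51 to 0.39 in adjacent liver and by -0.22 to 0.12 in controls. On chromosome 19 the RefSeq order of these neighbouring genes is Scd3, Scd2, Scd4, Scd1, and probes could share sequence within the family; probe sequences were not used here. Scd3 was at 2.999 ± 0.09 in controls (SD, n = 3), 2.99 ± 0.17 in adjacent liver (SD, n = 5) and 3.44 ± 0.82 in tumours (SD, n = 6), and Scd4 at 2.98 ± 0.25, 2.74 ± 0.17 and 2.64 ± 0.12, so that both stayed below the array median in each group mean.

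**Figure D1:**
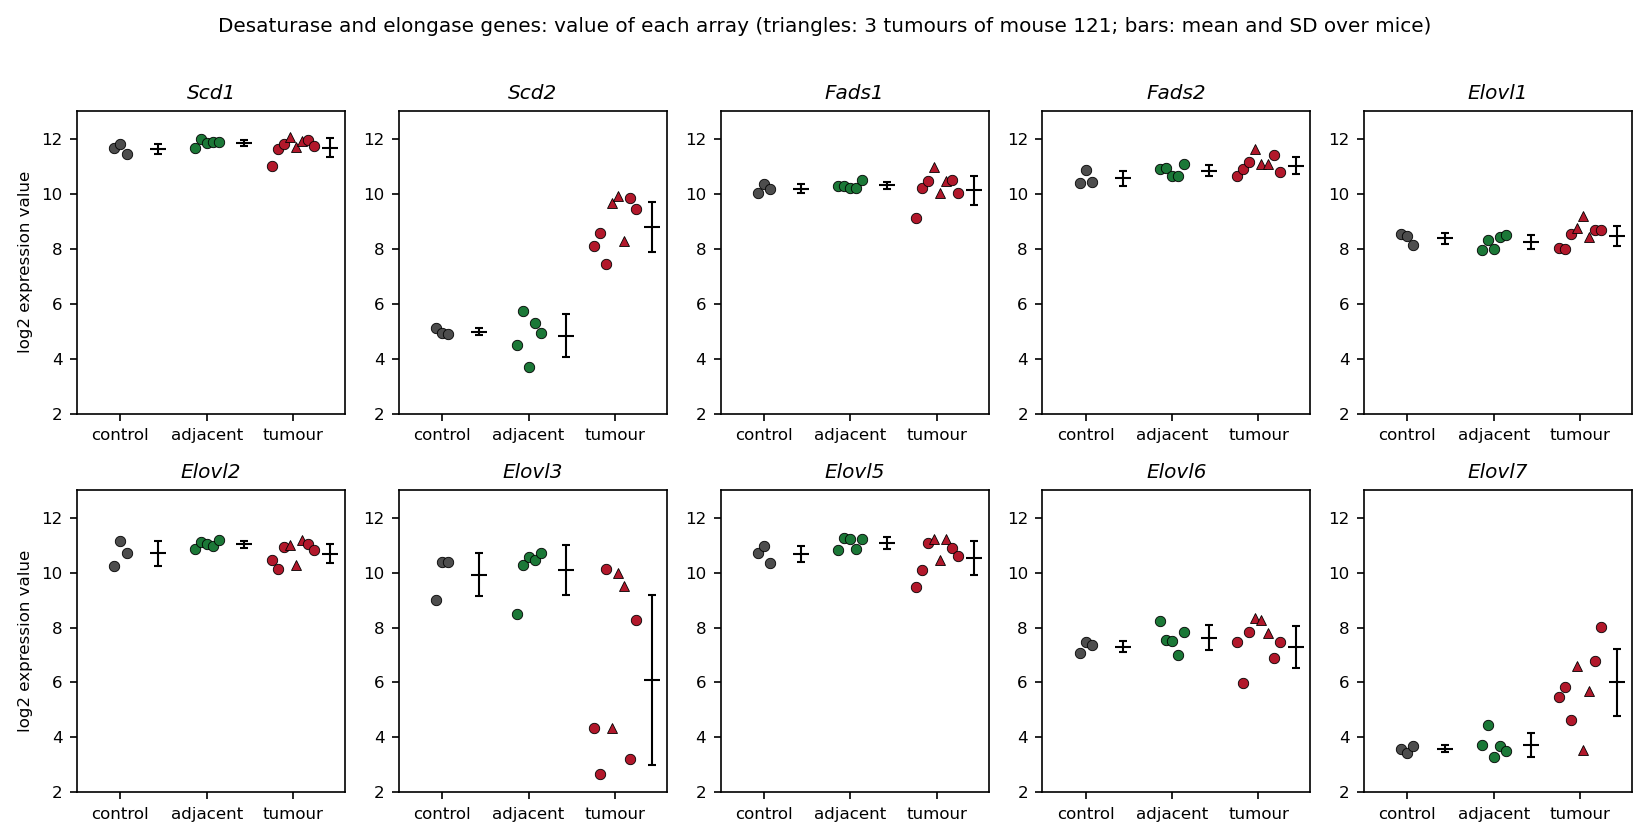
Log2 expression value (vertical axis, 1 panel per gene) of each array in control liver, adjacent liver and tumours; points are arrays, triangles the 3 tumours of mouse 121, and bars the mean and SD over mice. All 8 tumours lie above the other arrays for Scd2, 7 of 8 do for Elovl7, and Elovl3 spreads from 2.67 to 10.14 over the tumours.

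Fads1 and Fads2, the front-end desaturases that make arachidonic acid and related chains, sit side by side on chromosome 19 and were both high in all groups. Fads1 was at 10.02 to 10.34 in controls, 10.21 to 10.49 in adjacent liver and 9.11 to 10.97 in tumours. Its tumour mean of 10.12 ± 0.53 (SD, n = 6) differed from controls by -0.05 (SE 0.24, adjusted p = 0.965). The tumour range was wider than that of either liver group, with mouse 81 at the bottom and the unnumbered tumour of mouse 121 at the top. Fads2 was at 10.38, 10.87 and 10.44 in controls 10, 11 and 12. Its adjacent livers ran from 10.63 to 11.08 and its tumours from 10.63 to 11.63, with 4 of 8 tumours above all liver arrays. These were the tumours of mice 93 and 123 and, from 1 animal, the unnumbered tumour and tumour 3 of mouse 121. The mean difference from controls was 0.46 (SE 0.18, adjusted p = 0.308) for tumours and 0.28 (SE 0.18, adjusted p = 0.999) for adjacent liver, and neither passed. Fads3, a related gene beside Fads2, had group means of 5.90, 6.04 and 6.34 in controls, adjacent liver and tumours; it was named after its values were seen.

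Of the elongases that handle saturated and monounsaturated chains, Elovl7 was dim in liver and higher in most tumours. It was at 3.59, 3.45 and 3.70 in control mice 10, 11 and 12. It was at 4.45, 3.28, 3.68, 3.50 and 3.73 in the adjacent livers of mice 121, 123, 124, 1931 and 81. In tumours it was at 6.60, 3.54 and 5.69 in mouse 121 (unnumbered, tumour 2 and tumour 3), 6.80 in mouse 123, 8.02 in mouse 124, 5.49 in mouse 81, 5.83 in mouse 90 and 4.63 in mouse 93. Of the 8 tumours, 7 lay above all liver arrays, and tumour 2 of mouse 121 lay within their range; with the tumours of that mouse averaged, the groups of mice did not overlap. The tumour mean of 6.01 ± 1.22 (SD, n = 6) exceeded the control mean by 2.42 (SE 0.54, 5.37-fold, adjusted p = 0.103), which did not pass. It was 2.28 (SE 0.46, 4.85-fold) above adjacent liver. Without the tumour of mouse 93, the lowest mouse, the difference from controls was 2.70 and the adjusted p 0.0282. Leaving out the lowest mouse raises the difference by itself, and 242 genes of all passed in place of 6. Of 22 alternatives this was the only 1 in which Elovl7 passed against controls (limma adjusted p 0.0282 to 0.334). Of the 8 liver arrays, all but the adjacent liver of mouse 121 were below the lowest array median of 4.37.

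Elovl3, an elongase of saturated and monounsaturated very long chains that is known in mouse liver for its male-biased and daily rhythmic expression, was high in liver and ranged most widely in tumours. It was at 9.01, 10.37 and 10.39 in control mice 10, 11 and 12. It was at 10.29, 10.55, 10.46, 10.70 and 8.48 in the adjacent livers of mice 121, 123, 124, 1931 and 81. In tumours it was at 4.33, 9.99 and 9.53 in mouse 121 (unnumbered, tumour 2 and tumour 3), 3.22 in mouse 123, 8.27 in mouse 124, 4.35 in mouse 81, 2.67 in mouse 90 and 10.14 in mouse 93. Thus 5 of 8 tumours lay below all liver arrays and 3 lay within their range, among them both numbered tumours of mouse 121. The tumour mean of 6.10 ± 3.08 (SD, n = 6) was 3.82 below controls on the log2 scale (difference -3.82, SE 1.34, adjusted p = 0.251) and differed from adjacent liver by -4.00 (SE 1.15). The SD of 3.08 among tumours is of the order of these differences. The hour of sampling is not given in the labels.

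Elovl6, which lengthens palmitate to stearate and so supplies the Scd enzymes, and Elovl1, which makes the very long saturated chains of sphingolipids, overlapped between groups and did not pass. Elovl6 was at 7.08 to 7.47 in controls, 7.02 to 8.25 in adjacent liver and 5.999 to 8.35 in tumours. Its tumour mean differed from controls by -0.01 (95% interval -0.80 to 0.78, adjusted p = 0.996). Elovl1 was at 8.14 to 8.54, 7.94 to 8.49 and 7.99 to 9.20, and 4 of 8 tumours lay above all liver arrays. These were the tumours of mice 123 and 124 and, from 1 animal, the unnumbered tumour and tumour 2 of mouse 121. The Elovl1 difference of tumours from controls was 0.08 (95% interval -0.35 to 0.51, adjusted p = 0.913). These intervals still allow changes of up to about 0.80 for Elovl6 and 0.51 for Elovl1 on the log2 scale.

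The elongases of polyunsaturated chains, Elovl2 and Elovl5, act in turn with Fads1 and Fads2 and were high in every group. Elovl2 was at 10.24 to 11.15 in controls, 10.87 to 11.17 in adjacent liver and 10.13 to 11.19 in tumours. Elovl5 was at 10.36 to 10.95, 10.83 to 11.25 and 9.49 to 11.23. Compared with controls, the tumour mean differed by -0.01 (SE 0.20, adjusted p = 0.993) for Elovl2 and by -0.15 (SE 0.29, adjusted p = 0.880) for Elovl5. Both had their means in tumours below those in adjacent liver, by 0.33 (difference -0.33, SE 0.17) and 0.55 (difference -0.55, SE 0.25), with overlapping ranges.

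Over the 10 genes, adjacent liver of deleted mice overlapped with control liver. By limma with Benjamini-Hochberg adjustment over all genes, 0 of 10 passed and 0 had an unadjusted p under 0.05, and 0% of all genes tested passed (1059, or 4.55%, had an unadjusted p under 0.05). No gene of the 10 had groups that did not overlap, against 4.22% of all genes. The mean was higher in adjacent liver for 8 of the 10 and lower for 2, Scd2 and Elovl1. The median difference was 0.20, against -0.01 over all genes. The largest were 0.40 (SE 0.30) for Elovl5, 0.32 (SE 0.38) for Elovl6 and 0.32 (SE 0.21) for Elovl2, each with an adjusted p of 0.999. These SE and p rest on 1 spread per gene shared by all 3 groups, tumours included. For Elovl5 the SD was 0.22 in adjacent liver, 0.30 in controls and 0.61 in tumours. In a limma fit of adjacent liver and controls alone, 0 of the 10 passed and the adjusted p of Elovl5 was 0.842. For Scd2 the difference was -0.16 (95% interval -1.23 to 0.91, adjusted p = 0.999).

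In tumours against controls, 0 of the 9 genes other than Scd2 passed and 3 (Fads2, Elovl3 and Elovl7) had an unadjusted p under 0.05. Of all genes, 0.0258% passed and 2917 (12.5%) had an unadjusted p under 0.05. The groups of mice did not overlap for 2 of 10, Scd2 and Elovl7, and for 5.18% of all genes. Scd2 was chosen on its tumour values, so nothing is read from this count beside that share. The median difference of the 10 was 0.02, with 5 higher and 5 lower, and that of all genes was -0.04. In tumours against adjacent liver, the comparison that led to the choice of Scd2, 1 of 10 passed and 0.155% of all genes did; the 1 is Scd2 itself, whose call follows from its selection. The groups of 2 of 10 did not overlap, Scd2 for the same reason and Elovl7, and those of 2.23% of all genes did not. Nothing is read from these last counts. The 3 comparisons share arrays in pairs, so their values are not independent.

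**Figure D2:**
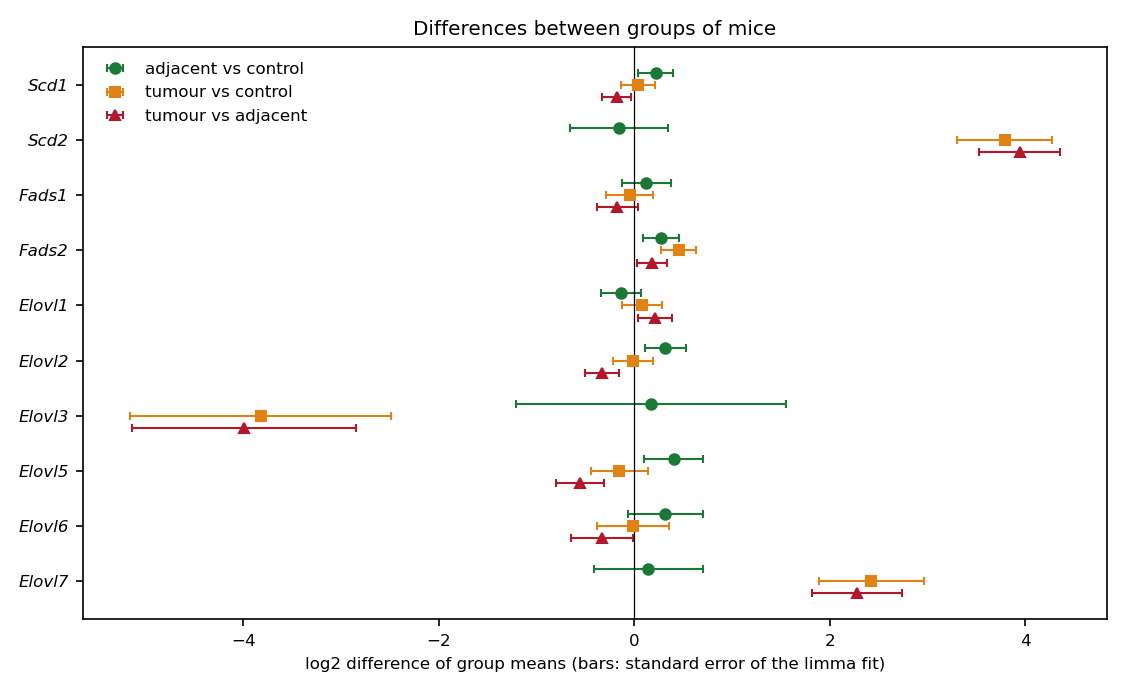
Difference of group means on the log2 scale (horizontal axis) for each gene in the 3 comparisons, with bars showing the standard error of the limma fit. Scd2 and Elovl7 lie to the right in both tumour comparisons (3.95 and 2.28 against adjacent liver), Elovl3 lies to the left with wide bars (-4.00), and the adjacent liver values lie near 0.

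Seen tumour by tumour, the genes did not move as 1 block. Against the mean of the adjacent livers, Scd2 was higher by 2.61 in the tumour of mouse 93 up to 5.09 in tumour 2 of mouse 121. Elovl7 ran from -0.19 in tumour 2 of mouse 121 to 4.29 in mouse 124, and Elovl3 from -7.43 in mouse 90 to 0.04 in mouse 93. Tumour 2 of mouse 121 held the highest Scd2 value of all tumours, yet its Elovl7 and Elovl3 were in the range of liver. The tumour of mouse 93 likewise had liver-level Elovl3, with the lowest Scd2 of the 8.

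The 3 tumours of mouse 121 show how far lesions of 1 animal can differ. Their range was 5.66 for Elovl3, against 7.47 over the 6 mice, and 3.07 for Elovl7, against 3.39. For Scd2 it was 1.64 against 2.39, and for Elovl2 0.91 against 0.89. Scd1 varied by 0.35 among these 3 tumours and by 0.93 over the mice. The tumour of mouse 81 was the lowest of the 8 for Scd1, Fads1, Fads2 and Elovl5, at 11.001, 9.11, 10.63 and 9.49. The tumour of mouse 90 was the lowest for Elovl1, Elovl2, Elovl3 and Elovl6, at 7.99, 10.13, 2.67 and 5.999.

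**Figure D3:**
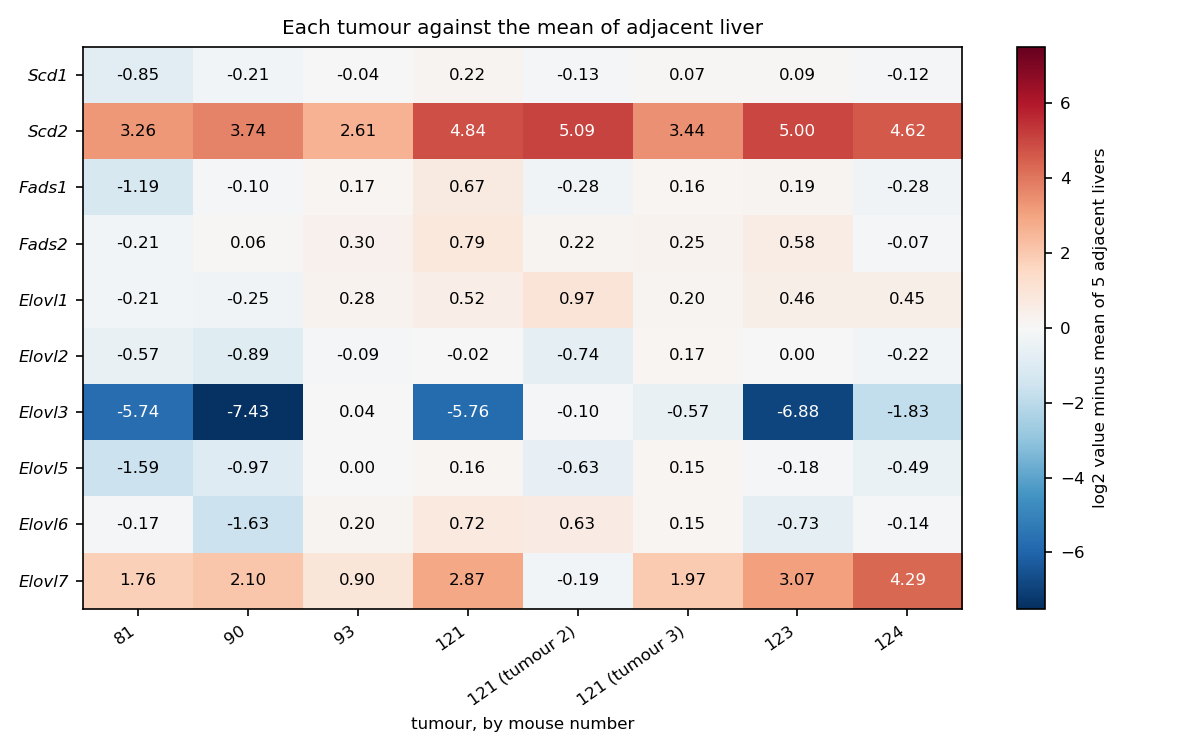
Log2 value of each tumour minus the mean of the 5 adjacent livers, with genes in lines and tumours in columns by mouse number; red is higher, blue is lower, and each cell prints its value. Scd2 is red in all 8 tumours, from 2.61 to 5.09, while Elovl3 is between -7.43 and -5.74 in 4 tumours and between -1.83 and 0.04 in the other 4.

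In the 4 mice that gave both tissues, tumour minus own adjacent liver (tumours of mouse 121 averaged) was 3.55, 4.13, 6.15 and 3.59 for Scd2 in mice 121, 124, 123 and 81. The mean was 4.36 ± 1.22 (SD, n = 4). For Elovl7 the differences were 0.83, 4.34, 3.51 and 1.76, a mean of 2.61 ± 1.60 (SD, n = 4). For Elovl3 they were -2.34, -2.19, -7.34 and -4.12, a mean of -4.00 ± 2.39 (SD, n = 4). All 4 mice thus had higher Scd2 and Elovl7 and lower Elovl3 in tumour than in their own liver. Elovl1 was also higher in 4 of 4 (mean 0.38 ± 0.26, SD, n = 4) and Elovl5 lower in 4 of 4 (mean -0.55 ± 0.53, SD, n = 4). Scd1 was lower in 3 of 4 (mean -0.20 ± 0.33, SD, n = 4). With mouse as a replicate block in these 4 animals, 0 of the 10 genes passed, and 0 of all 23279 genes did.

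**Figure D4:**
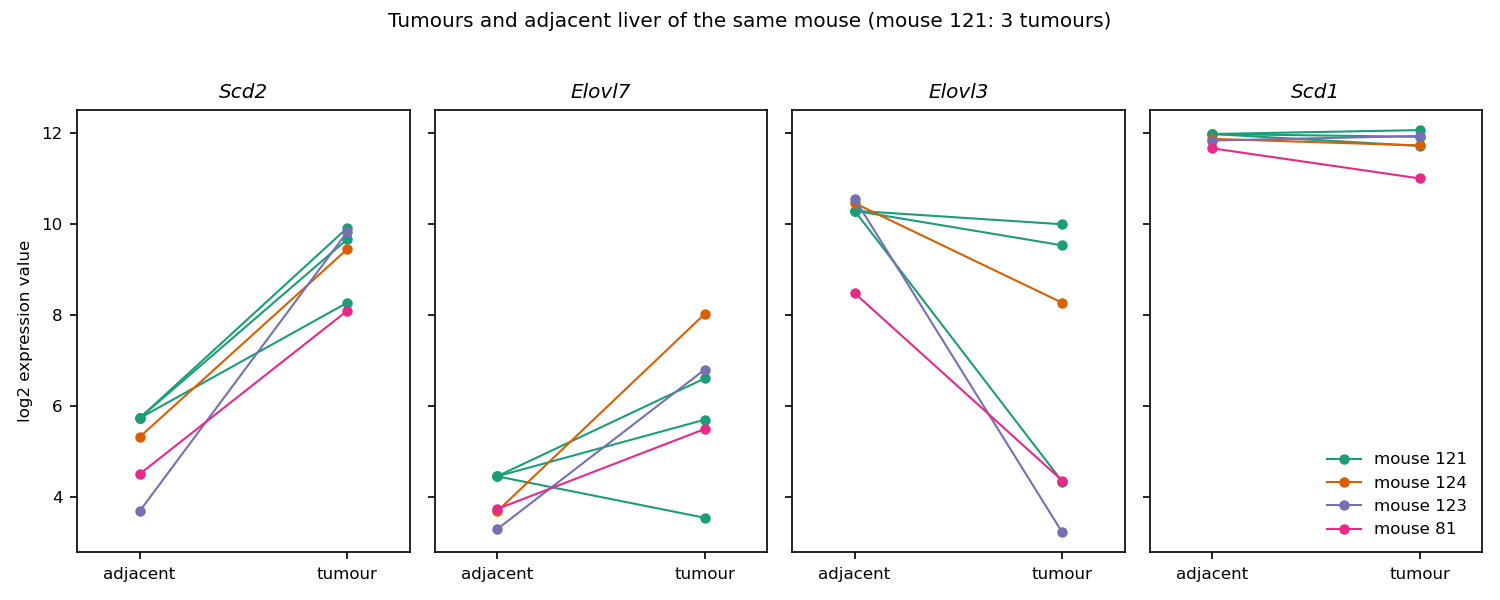
Log2 expression value in adjacent liver and tumour of the 4 mice with both tissues, for Scd2, Elovl7, Elovl3 and Scd1; each line joins a tumour to its own adjacent liver, and mouse 121 has 3 lines. All lines climb for Scd2, all descend for Elovl3 by 0.30 to 7.34, and tumour 2 of mouse 121 descends for Elovl7 from 4.45 to 3.54.

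Among the genes of 8 lists around fatty acid desaturation and lengthening, 1 passed the test. It was not a desaturase or elongase: of the 7 other desaturases and elongases, 0 passed in any comparison. Of 73 genes in 8 lists, 69 were measured, and the others were not used here. By limma, 1 rose and 0 fell in tumours against adjacent liver (13 of the 69 had an unadjusted p under 0.05, beside 15.3% of all genes). In tumours against controls 0 passed (8 unadjusted, beside 12.5% of all genes), and in adjacent liver against controls 0 passed (3 unadjusted, beside 4.55%). The gene that rose was Acsl4, which activates arachidonic acid and related chains. Its mean was 9.05 ± 0.32 in tumours (SD, n = 6) against 7.85 ± 0.24 in adjacent liver (SD, n = 5), a difference of 1.20 (SE 0.20, adjusted p = 0.0387), with no overlap of the groups. The call depended on the samples used: leaving out 1 mouse of 1 group at a time gave differences of 1.11 to 1.28. Acsl4 did not pass without control 10, adjacent liver 81, 123, 124 or 1931, or the tumours of mouse 81, 121 or 123 (limma adjusted p = 0.0552 to 0.157). Against controls the difference of Acsl4 was 1.19 (SE 0.23, adjusted p = 0.0761). Slc27a5, of the same list of 8 measured long-chain acyl-CoA synthetases, was named after its values were seen. It went the other way in tumours against adjacent liver, by -0.93 (SE 0.22, adjusted p = 0.0825), with no overlap of the groups.

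The cytochrome b5 system gives electrons to the desaturases, and 0 of its 5 genes passed; Cyb5a differed by -0.21 and Cyb5b by -0.50 between tumours and adjacent liver. Cyb5r1, named after its values were seen, had the largest difference of the 5, 0.71 in the other direction (SE 0.18, adjusted p = 0.0896), and its groups did not overlap. Of 7 genes for the later steps of the elongation cycle 0 passed, with Hsd17b12 at -0.12 and Hacd1 at -0.20. Hacd2, also named after its values were seen, had the largest difference of the 7, 0.36 (SE 0.11, adjusted p = 0.148); against controls it was 0.74 (SE 0.13, adjusted p = 0.0661), with no overlap. The palmitate supply list (8 genes) had a lower median between tumours and adjacent liver, -0.37 against -0.03 over all genes, with 0 past the test. Acly, which makes cytosolic acetyl-CoA, differed by -0.16 (SE 0.26) and Acss2 by -0.54 (SE 0.39). Thrsp and Acacb, named after their values were seen, had the largest differences of the 8. These were -1.73 (SE 0.64, adjusted p = 0.203) and -1.11 (SE 0.34, adjusted p = 0.137). Of 15 measured regulators 0 passed: Srebf1, which encodes SREBP-1, differed by -0.39 (SE 0.19, adjusted p = 0.349) and Srebf2 by 0.42 (SE 0.22, adjusted p = 0.387). Lpcat1 and Lpcat2, of 12 phospholipid remodelling genes, differed by 0.01 and 0.17. Of 7 measured genes for peroxisomal shortening, Abcd2 differed by 1.65 (SE 0.95) and Abcd3 by -0.60 (SE 0.27). These 7 also had the lowest list median, -0.47; 0 of them passed and 6 had an unadjusted p under 0.05, beside 15.3% of all genes.

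**Figure D5:**
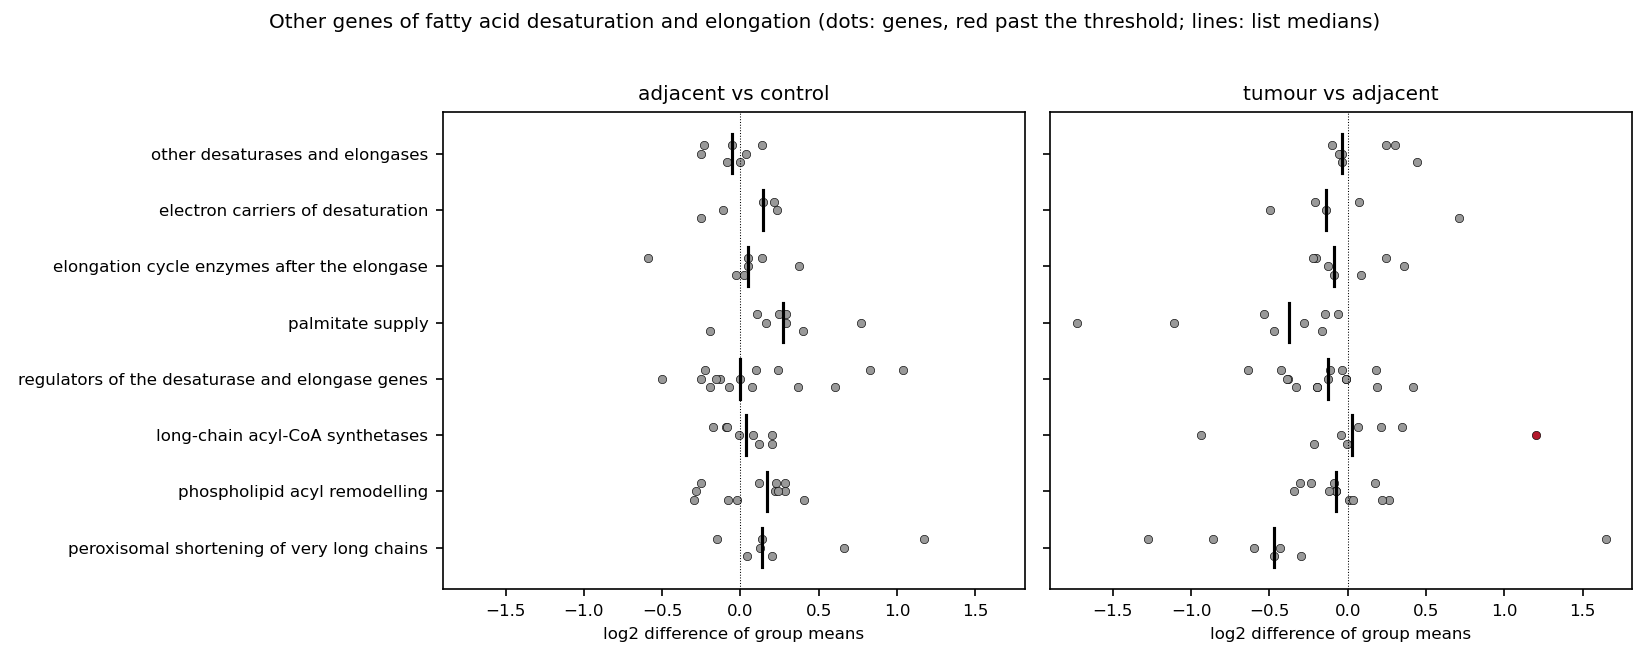
Log2 difference of group means (horizontal axis) for each gene of the 8 lists, in adjacent liver against controls and in tumours against adjacent liver; points are genes, red points passed the test, and lines are list medians. Acsl4, at 1.20, is the single red point, and list medians run from -0.05 to 0.27 on the left and from -0.47 to 0.03 on the right.

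Markers of other cells that hold Scd2 or other genes of the family were set beside these values. Adipocytes express Scd2; of 6 measured adipocyte markers 0 passed, and their mean level was 4.11 to 4.59 in controls, 4.15 to 4.37 in adjacent liver and 4.26 to 4.83 in tumours. The adipocyte-defining Adipoq, looked up after its values were seen, had means of 2.61, 2.86 and 2.79, close to the lowest 10% of all values, in every group. Fabp4, a fatty acid carrier of adipocytes, macrophages and endothelium, was at 9.64 ± 0.92 in tumours (SD, n = 6) against 7.65 ± 0.67 in adjacent liver (SD, n = 5), a difference of 1.98 (SE 0.46, adjusted p = 0.0770). Schwann cell and neuron markers averaged 3.61 to 3.797, 3.65 to 3.96 and 3.56 to 3.94. Of 10 stellate cell and fibroblast markers 0 passed and 7 had an unadjusted p under 0.05 in tumours against adjacent liver, where 15.3% of all genes did. Their differences went both ways, from -1.06 to 1.25, with list means of 5.94 to 6.03, 5.51 to 6.64 and 6.01 to 6.94. The 8 endothelial markers averaged 6.60 to 6.96, 6.51 to 6.95 and 5.70 to 7.15. In tumours against adjacent liver 0 of them passed and 6 had an unadjusted p under 0.05, also in both directions. Emcn differed by 1.69 (SE 0.33, adjusted p = 0.0589) and Clec4g by -2.41 (SE 0.68, adjusted p = 0.115). The part of Fabp4-positive, stromal or endothelial cells in the Scd2, Elovl7 and Elovl3 values was not tested.

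By likeness of pattern, measured as the root mean square difference of mean-centred log2 values over the 14 mouse-level values, the nearest of 23278 genes to Scd2 were Anxa2 (0.903), Nrg1 (0.936), Nid1 (0.945) and Elovl7 (0.963). Spink1, Ly6d, Cd200 and Cbr3 followed at 1.001 to 1.02. Elovl7 was thus the fourth nearest gene, at rank 4, and Elovl3 was the most distant of all, at rank 23278. Fads2 had rank 2089, Elovl1 rank 2579 and Scd1 rank 11208. The list depended on the measure: ranked by Pearson correlation it shared 1 of the 8 genes, with Elovl7 at rank 14, and over the 6 tumour mice alone it shared 0, with Elovl7 at rank 2632.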

How the data were processed

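Total RNA of whole liver or tumour tissue was extracted with Trizol, amplified, labelled with biotin and hybridised to 1 array per sample, per the labels' protocols. The deposited values are log2 expression values of 24479 probe sets; the submitters' processing notes name RMA and Partek and no version. RMA equalises the distributions of arrays and can compress dim and very bright values. The chip model, genome build and scan dates count as not given in the sources used here. Of the probe sets, 23281 had 1 symbol in the platform annotation and 1198 none; for 2 symbols with 2 probe sets the brighter was used, which left 23279 genes.

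Groups were taken from the sample titles. The 3 tumours of mouse 121 were averaged, and the 3 groups were fitted together with lmFit of limma 3.58.1 in R 4.3.3, followed by eBayes (trend on mean intensity). Benjamini-Hochberg adjustment ran over all genes, and the threshold was an adjusted p of 0.05. SE and 95% intervals are those of this fit, which was tested on simulated data. Adjacent liver 1931 and tumour 93 carry different numbers and were treated as different mice. Mouse numbers pair 4 tumours with their own liver by animal; the mean correlation of paired samples' deviations from their group means was 0.0789 (range 0.0349 to 0.0998), against -0.0116 (range -0.328 to 0.317) for samples of different mice.

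The 10 genes, the 8 pathway lists and the 10 marker lists were chosen with earlier results of these data known. Named were all 10 genes, the 8 nearest to Scd2, per pathway list up to 3 genes past the test or else the first 2 measured, and up to 2 per marker list; others are marked. Alternatives were mouse as a block, quantile normalization, median centring, a filter on dim genes, no trend, fewer groups and other handling of mouse 121. Each of the 14 mouse-level values was also left out in turn, so a mouse with both tissues was never left out whole.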

Additional observations from a re-analysis of the deposited data

Results flagged for a closer look

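In 4 of the 20 groups of 5 or 6 mice examined, 1 mouse lay apart from the others by Dixon's criterion, which chance alone meets in about 1 of 20 groups. The tumour of mouse 81 was low for Scd1, at 11.001 against 11.64 for the next mouse, a gap of 0.682 of the range of 6 mice. The same tumour was low for Fads1, at 9.11 against 10.02 (0.659 of the range). The adjacent liver of mouse 1931 was high for Fads1, at 10.49 against 10.29 (0.712 of the range of 5 mice). The adjacent liver of mouse 81 was low for Elovl3, at 8.48 against 10.29 (0.814 of the range). Mouse 81 accounts for 3 of the 4, in 2 tissues. The Elovl3 difference between adjacent liver and controls was 0.17 with all mice and 0.12 without this liver and control mouse 10, the lowest of each group, a choice made after the data were seen.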

How the results depend on the processing

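The counts below include Scd2, which was chosen on its tumour values, so its calls say nothing about stability. For tumours against adjacent liver the count of the 10 genes past the test was 1 (Scd2). It was 0 with mouse as a fixed replicate block in the 4 paired mice, where 8 values entered in place of 14. In that fit 0 of all 23279 genes passed, so the 0 says nothing particular about these 10. It was 2 (Scd2 and Elovl7) with only the unnumbered tumour of mouse 121, where 157 genes of all passed in place of 36. That setting leaves out tumour 2 of mouse 121, whose Elovl7 was in the range of liver. With the filter on dim genes it was also 2 (Scd2 and Elovl7), and 181 of 12864 genes passed. Elovl7 passed that filter only through the tumours where it is high. Nothing is drawn from either setting. With mouse as a random replicate block the count was 1, and 206 genes of all passed in place of 36. That fit took 16 arrays in place of 14 values, with the 3 tumours of mouse 121 entered separately. Leaving out each of the 14 mouse-level values in turn (1 mouse of 1 group) gave 1 to 3. Without tumour 93 the adjusted p of Elovl3 was 0.0233 and that of Elovl7 0.0101, with 743 genes of all past the test. Without tumour 124 that of Elovl7 was 0.0423, with 43 genes of all past the test. Against controls the count was 1 (Scd2, and 0 of the other 9), with 6 genes of all past the test. It was 0 to 2 when single values were left out. It was 0 without control 11 or control 12, which leave 2 controls. It was 2 (Scd2 and Elovl7) without tumour 93, with 242 genes of all past the test. For adjacent liver against controls it was 0 under every alternative. For the pathway lists, leaving out each value gave 0 to 2 genes past the test in tumours against adjacent liver (1 with all values). It gave 0 to 2 against controls (0 with all values, 2 without tumour 90 or tumour 93) and 0 for adjacent liver against controls. These omissions were added after the counts were seen. The genes nearest to Scd2 shared 1 of 8 with those by Pearson correlation and 0 of 8 with those over tumours alone.

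Small differences that were never called changed sign. Against controls, under the random replicate block, with 8 separate tumours and with the unnumbered tumour of mouse 121 only, Fads1 was at 0.032, 0.043 and 0.034, Elovl2 at 0.017, 0.022 and 0.019, and Elovl6 at 0.17, 0.20 and 0.026. With single mouse-level values left out, tumours minus controls ranged from -0.052 to 0.18 for Scd1, -0.12 to 0.16 for Fads1 and -0.038 to 0.17 for Elovl1. The ranges were -0.24 to 0.21 for Elovl2, -0.31 to 0.055 for Elovl5 and -0.18 to 0.25 for Elovl6. Tumours minus adjacent liver ranged from -0.24 to 0.032 for Fads1. Adjacent liver minus controls ranged from -0.38 to 0.13 for Scd2, -0.28 to 0.58 for Elovl3 and -0.034 to 0.26 for Elovl7. Over these alternatives the Elovl3 and Elovl7 differences in both tumour comparisons kept their sign, from -4.80 to -3.14 and from 1.88 to 2.70. Those of Scd2 ran from 3.58 to 4.36, which says nothing about stability because Scd2 was chosen on its tumour values. Except where the number of samples or genes changed, the cause was not tested. Most liver values of Elovl7 and the lowest tumour values of Elovl3 lie near or below the array median, where RMA values can be compressed; this was not tested.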

Other observations

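The likeness measure was also applied to Elovl3 and Elovl7, a choice made after their values were seen. The genes nearest to Elovl3 over the 14 mouse-level values were Ces3b (root mean square difference 0.839), Cyp4a12a (1.02), Slco1a1 (1.08), Sult2a8 (1.13), Slc1a2 (1.23), Cyp2c50 (1.25), Cyp2f2 (1.28) and the endothelial gene Clec4g (1.301). Cyp4a12a and Slco1a1, like Elovl3, are known as male-biased genes of mouse liver. Their tumour means differed from adjacent liver by -2.99 and -3.29, and that of Ces3b by -3.70.

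The genes nearest to Elovl7 were Slc1a4 (0.536), Abcc4 (0.540), Nqo1 (0.545), Srxn1 (0.618), Cd34 (0.620), Emcn (0.627), Casp12 (0.686) and Nid1 (0.688). Nqo1 and Srxn1 encode enzymes of the oxidant response, and Cd34 and Emcn are endothelial genes. Nid1 was also among the 8 genes nearest to Scd2. Tumours and adjacent liver differed by 1.70 for Nqo1, 1.62 for Srxn1 and 1.67 for Cd34. These values describe the same samples that chose the genes, and no test was made.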
